A study of Mus musculus with 12 samples.

Results

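The 10 genes described here are classical astrocyte markers: Gfap, S100b, Slc1a2, Slc1a3, Aqp4, Gja1, Aldoc, Apoe, Clu and Cst3. They were taken by symbol, by a rule that uses no measured value, although the list itself was drawn up with earlier results of these data known, and all 10 were found among the 45792 genes listed for each library. RNA-seq of ribosome-depleted RNA was done on 12 cultures of primary mouse neural stem cells (NSCs), grown from forebrains of newborn pups. Each pup's cells were kept separate, by the description of the methods. The cultures were second-passage, serum-free and kept in EGF and FGF, that is, under proliferation conditions and not under an astrocyte differentiation protocol. The groups were wild-type C57BL/6J NSCs (WT, replicates 9 to 12), NSCs lacking Ncf1 given vehicle (vehicle-treated Ncf1-/-, replicates 1 to 4), and NSCs lacking Ncf1 given recombinant Igfbp2 (Igfbp2-treated Ncf1-/-, replicates 5 to 8), with n = 4 libraries each. Ncf1 encodes p47phox, a cytosolic subunit of the superoxide-producing NADPH oxidase Nox2, and Igfbp2 is a secreted insulin-like growth factor-binding protein. The Ncf1-/- line had been backcrossed to C57BL/6J, and every cell of these animals lacks the gene. The labels give 100 ng/ml Igfbp2, added 48 h after plating, with RNA collected 48 h later. The methods of the study give a lower concentration, so the dose is uncertain. The comparisons ask how the loss of Ncf1 bears on these mRNAs and whether added Igfbp2 moves them.

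Astrocytes are the glia that clear glutamate, buffer water and ions, couple through gap junctions and supply lipids. NSCs of the postnatal forebrain are themselves astroglia-like: they express Gfap, the glutamate transporter Slc1a3 and lipid carriers before any differentiation, so these mRNAs mark the astroglial state of a culture and not mature astrocytes alone. Expression of Gfap, S100b and Aqp4 is known to increase as precursors become astrocytes.

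Libraries held 18201622 to 34086554 estimated gene counts. Ncf1 itself had 2 to 7 counts in WT, 2 to 4 in vehicle-treated and 1 in each Igfbp2-treated library, so the genotype could not be checked from its mRNA. The summed level (CPM, counts scaled to the library's effective size with TMM factors) of 4 Y-linked genes was 105 to 116 in the vehicle-treated and 7.79 to 9.18 in the Igfbp2-treated libraries. Xist, expressed from the inactive X chromosome of female cells, ranged over 72.3 to 87.8 CPM in vehicle-treated libraries and 166 to 275 CPM in Igfbp2-treated libraries. The study describes these as paired cultures of the same animals. All 4 vehicle-treated libraries thus held Y-linked and Xist RNA together, unlike WT replicates 9 to 11, which goes against the description of separate pups, and the source of this was not tested. The effect of Igfbp2 therefore cannot be told apart from a difference in the sex or identity of the cultures. In WT that sum was 107 to 118 in replicates 9 to 11 and 6.46 in replicate 12, with Xist at 3.87 to 5.22 CPM and 291 CPM. Both Ncf1-/- groups thus also differed from WT replicates 9 to 11 in Xist, and the Igfbp2-treated group in Y-linked RNA. The differences from WT therefore cannot be told apart from a difference in the sex or identity of the cultures either. The labels place replicate 12 in WT, whereas a sample sheet of the study's software lists the library of that number as an apocynin-treated WT culture, so the differences from WT are given with and without it.

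Sequence upstream of the transcription start was available from RefSeq (GRCm38.p6) for 8 of the 10 markers, with no entry for Aqp4 or Clu. The 250 bases before the start are shown for S100b and Gfap, which fell most in Ncf1-/- NSCs, and for Slc1a3, which fell least. Capitals mark matches, on either strand, to TTCNNNGAA (the type of site bound by STAT factors), TTGGC (a half-site of NFI factors) or TGANTCA (the AP-1 type), motifs of factor families known in astroglial gene expression.
S100b, chr10:76253586-76253835, plus strand, outside the gene's annotated span: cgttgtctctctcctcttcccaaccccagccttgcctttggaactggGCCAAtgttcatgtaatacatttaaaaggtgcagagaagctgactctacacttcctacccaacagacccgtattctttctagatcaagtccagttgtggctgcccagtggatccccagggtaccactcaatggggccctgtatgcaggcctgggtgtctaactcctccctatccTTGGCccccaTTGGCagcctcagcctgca
Gfap, chr11:102897201-102897450, minus strand, inside the gene's annotated span: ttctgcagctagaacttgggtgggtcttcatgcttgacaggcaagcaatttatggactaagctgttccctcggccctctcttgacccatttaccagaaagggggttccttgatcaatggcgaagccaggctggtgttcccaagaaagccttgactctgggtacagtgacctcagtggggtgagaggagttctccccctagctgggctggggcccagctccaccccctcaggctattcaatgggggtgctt
Slc1a3, chr15:8710808-8711057, minus strand, outside the gene's annotated span: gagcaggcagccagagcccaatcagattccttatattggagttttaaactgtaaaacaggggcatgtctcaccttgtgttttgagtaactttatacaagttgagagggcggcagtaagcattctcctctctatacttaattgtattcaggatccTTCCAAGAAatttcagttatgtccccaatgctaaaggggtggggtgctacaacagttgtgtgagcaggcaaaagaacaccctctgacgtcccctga
S100b held 3 TTGGC matches, which began 203, 29 and 19 bases before the start. Slc1a3 held 1 TTCNNNGAA match that began 96 bases before it, and the Gfap window held none of the 3 motifs. Over the 11 windows of the 8 markers, TTCNNNGAA was present in 2, TTGGC in 5 and TGANTCA in 1. Among all 32851 windows of this length, 7.02% held TTCNNNGAA, 41.5% TTGGC and 6.75% TGANTCA. A match is only a string of letters in a window of this size and is not a measured site.

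All 10 markers fell in vehicle-treated Ncf1-/- NSCs relative to WT. The falls ran from 19.2-fold for S100b, 7.20-fold for Gfap and 5.98-fold for Aqp4 down to 1.88-fold for Aldoc and 1.41-fold for Slc1a3. Each passed the test (edgeR quasi-likelihood, Benjamini-Hochberg over 15706 genes, called at an adjusted p under 0.05), and of all genes tested 28.2% were called lower in this comparison and 28.9% higher. Vehicle-treated Ncf1-/- and WT libraries did not overlap in CPM for any of the 10, against 25.0% of all genes with a non-overlapping range in the lower direction. The median log2 fold change was −1.79 over the 10 markers and 0.02 over all genes tested. With 4 libraries against 4, the exact two-sided permutation test cannot go below p = 0.0286, and all 10 markers reached that value. Ranges that do not overlap always give this value, so it adds nothing to them. In bulk RNA, fewer cells of a type and less mRNA per cell cannot be told apart. Without WT replicate 12 all 10 were again called lower, beside 4554 of 15992 genes.

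Gfap, the intermediate filament of astrocytes, fell by more than any marker but S100b. It measured 3667, 4104, 7590.2 and 6536 CPM in WT replicates 9 to 12, 924, 736, 869 and 512 CPM in vehicle-treated Ncf1-/- replicates 1 to 4 and 575, 541, 356 and 672 CPM in Igfbp2-treated Ncf1-/- replicates 5 to 8 (the same order is used below). WT replicates 11 and 12 were the highest, and the lowest WT library stood well above the highest Ncf1-/- library. The fall in vehicle-treated Ncf1-/- NSCs was 7.20-fold (log2 fold change −2.85 ± 0.28 (SE), edgeR adjusted p = 2.97e-06), and −2.77 without WT replicate 12.
S100b, a calcium-binding protein that is made by astrocytes and also by cells of the oligodendrocyte lineage, showed the largest fold change of the 10. It measured 132, 118, 29.1 and 79.6 CPM in WT, 5.18, 4.5, 5.21 and 3.73 CPM in vehicle-treated and 3.27, 3.79, 2.96 and 3.78 CPM in Igfbp2-treated Ncf1-/- NSCs. WT replicate 11 was far below the other WT libraries, yet above every Ncf1-/- library. The fitted difference between vehicle-treated Ncf1-/- and WT was −4.26 ± 0.38 (log2, SE, edgeR adjusted p = 1.32e-06) and −4.36 without replicate 12.

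**Figure D1:**
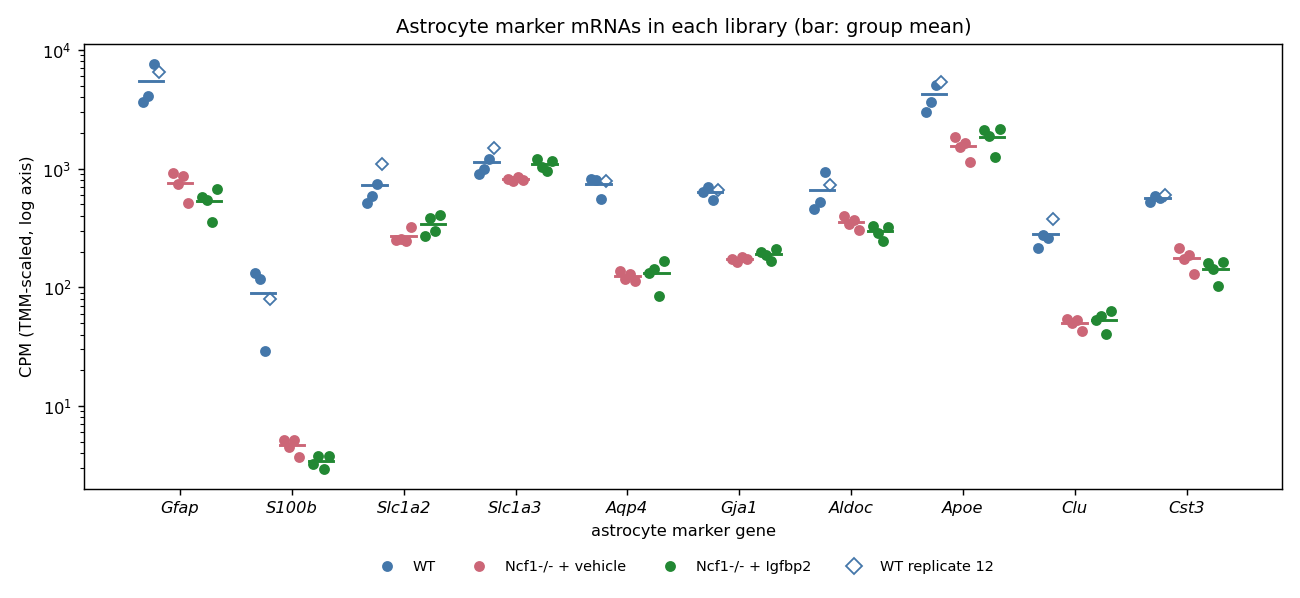
CPM (log axis) of the 10 astrocyte markers in each of the 12 libraries, with a bar at the mean of each group of 4 and WT replicate 12 as an open diamond. For all 10 genes the WT points lie above all vehicle-treated Ncf1-/- points, with the widest gap for S100b, from a WT mean of 89.5 to 4.66 CPM, and the narrowest for Slc1a3.

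The 2 astroglial glutamate transporters moved by different amounts. Slc1a2 (GLT-1), the main transporter of mature forebrain astrocytes, measured 513, 586, 737 and 1104 CPM in WT, 252, 254, 246 and 321 CPM in vehicle-treated and 269.6, 384, 296 and 404 CPM in Igfbp2-treated Ncf1-/- NSCs. WT replicate 12 was the highest by a wide margin, and the groups of WT and Ncf1-/- libraries did not overlap. Slc1a2 fell 2.74-fold in vehicle-treated Ncf1-/- NSCs (log2 fold change −1.45 ± 0.22 (SE), edgeR adjusted p = 8.53e-05) and 2.33-fold without replicate 12.
Slc1a3 (GLAST), which radial glia and NSCs carry as well as astrocytes, measured 894, 999, 1196 and 1494 CPM in WT, 814, 789, 855 and 799.9 CPM in vehicle-treated and 1208, 1032, 947 and 1167 CPM in Igfbp2-treated Ncf1-/- NSCs. The lowest WT library lay just above the highest vehicle-treated one, and the Igfbp2-treated libraries lay among the WT values. The fall in vehicle-treated Ncf1-/- NSCs was the smallest of the 10 (log2 fold change −0.49 ± 0.15 (SE), edgeR adjusted p = 0.0111), and −0.37 without WT replicate 12. It was no longer called when counts were scaled by library totals only (edgeR adjusted p = 0.0749), by limma on log2(TPM + 1) (adjusted p = 0.0921), or by the test on TPM across the 3 groups that the study used (adjusted p = 0.417). That test also left Slc1a2 (adjusted p = 0.0786) and Aldoc (adjusted p = 0.228) without a call.

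Aqp4, the water channel of astrocyte endfeet, and Gja1, which encodes the gap junction protein connexin 43, both fell several-fold. Aqp4 measured 821, 805, 559 and 793 CPM in WT, 136, 118, 129.7 and 114 CPM in vehicle-treated and 132, 141, 84.5 and 167 CPM in Igfbp2-treated Ncf1-/- NSCs. WT replicate 11 was the lowest of its group, and it was still more than any Ncf1-/- library. The fall of Aqp4 was 5.98-fold in vehicle-treated Ncf1-/- NSCs (log2 fold change −2.58 ± 0.19 (SE), edgeR adjusted p = 3.00e-07).
Gja1 measured 636, 699, 547 and 656 CPM in WT, 172, 164, 181 and 174 CPM in vehicle-treated and 198, 188, 168 and 212 CPM in Igfbp2-treated Ncf1-/- NSCs. Its libraries were tight in each group, and it had the smallest standard error of the 10 (log2 fold change −1.88 ± 0.10 (SE), edgeR adjusted p = 3.81e-08), a 3.67-fold fall. Without WT replicate 12 the differences were −2.59 for Aqp4 and −1.90 for Gja1 on the log2 scale.

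Aldoc, the brain isoform of the glycolytic enzyme aldolase, measured 457, 522, 942 and 730.0 CPM in WT, 396, 344, 371 and 303 CPM in vehicle-treated and 331, 289, 247 and 322 CPM in Igfbp2-treated Ncf1-/- NSCs. Replicates 11 and 12 carried most of the WT excess, and WT replicate 9 was only a little above vehicle-treated replicate 1. The fall was 1.88-fold (log2 fold change −0.91 ± 0.20 (SE), edgeR adjusted p = 0.00142) and −0.88 on the log2 scale without replicate 12.

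The 3 secreted proteins Apoe, Clu and Cst3 fell as well. Apoe, the main lipid carrier made by astrocytes, measured 2979, 3626, 5043 and 5327 CPM in WT, 1866, 1536, 1657 and 1136 CPM in vehicle-treated and 2130.4, 1884, 1253 and 2174 CPM in Igfbp2-treated Ncf1-/- NSCs. It fell 2.74-fold in vehicle-treated Ncf1-/- NSCs (log2 fold change −1.45 ± 0.23 (SE), edgeR adjusted p = 1.35e-04). WT replicates 9 and 10 were the lowest of their group, and both lay above every Ncf1-/- library.
Clu, the chaperone and lipid carrier clusterin (apolipoprotein J), measured 213, 278, 259 and 379.9 CPM in WT, 53.5, 50.1, 53.0 and 42.8 CPM in vehicle-treated and 53.4, 57.0, 40.8 and 62.8 CPM in Igfbp2-treated Ncf1-/- NSCs. The fall of Clu, 5.67-fold (log2 fold change −2.50 ± 0.18 (SE), edgeR adjusted p = 2.07e-07), was larger than that of Apoe or Cst3 in fitted size, a difference between genes that was not tested.
Cst3, the cysteine protease inhibitor cystatin C, measured 526, 588, 568 and 600.4 CPM in WT, 215, 174, 186 and 130.4 CPM in vehicle-treated and 159.8, 143, 103 and 163 CPM in Igfbp2-treated Ncf1-/- NSCs. Its 4 WT libraries lay closer together than those of any other marker, with an SD of 5.66% of the mean, and the fall was 3.24-fold (log2 fold change −1.70 ± 0.16 (SE), edgeR adjusted p = 2.15e-06). Without WT replicate 12 the log2 differences were −1.35 for Apoe, −2.36 for Clu and −1.70 for Cst3.

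Igfbp2 treatment of Ncf1-/- NSCs brought no called change in the 10 markers. None of the 10 passed the edgeR test against vehicle-treated Ncf1-/- NSCs, while 25.0% of all genes were called in this comparison, 14.2% higher and 10.7% lower. DESeq2 called 1 marker, beside 2442 genes higher and 1845 lower of 15706. At an unadjusted edgeR p under 0.05 there was 1 marker, a count without a share of all genes to set beside it. The fitted log2 fold change was above 0 for 6 markers and below 0 for 4, with a median of 0.09 against 0.04 over all genes. The largest in size were −0.50 ± 0.27 (SE) for Gfap (edgeR adjusted p = 0.178), −0.43 ± 0.40 for S100b (edgeR adjusted p = 0.453) and 0.42 ± 0.15 for Slc1a3 (edgeR adjusted p = 0.0521). Slc1a3 was the only marker whose treated and vehicle libraries did not overlap, with all 4 treated libraries higher (exact permutation p = 0.0286, the smallest possible), and 19.3% of all genes were non-overlapping in that direction. The standard errors, 0.10 to 0.40 on the log2 scale, limit the size of change that could be detected here. They rest on a spread shared by the 3 groups, and the WT libraries varied most. The biological coefficient of variation, edgeR's measure of spread, was 0.250 in WT, 0.116 in vehicle-treated and 0.121 in Igfbp2-treated NSCs. With only the 2 Ncf1-/- groups in the fit, standard errors were 0.20 for Gfap, 0.11 for Aldoc, 0.15 for S100b and 0.09 for Slc1a3. Here they were 0.27, 0.19, 0.40 and 0.15.

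For Slc1a3 the call was close to its threshold. It was called higher by DESeq2 (0.41, adjusted p = 0.0216), with only the 2 groups in the fit (0.37, edgeR adjusted p = 0.00666), with the culture pair as a block (0.36, edgeR adjusted p = 0.0184), and when WT replicate 9 (0.42), 11 (0.42) or 12 (0.38) was left out, each of which also changed the genes tested, the scaling and the estimate of spread. Among all genes, 2342 of 15852, 2863 of 15913 and 2141 of 15992 were called higher without replicates 9, 11 and 12. The fit with only the 2 groups also called 3 markers lower, Gfap (−0.56, edgeR adjusted p = 0.0433), Aldoc (−0.30, edgeR adjusted p = 0.0409) and S100b (−0.48, edgeR adjusted p = 0.0283). Of 15101 genes tested, that fit called 2950 higher and 2759 lower. The block, fitted to the same 2 groups, called none of these (edgeR adjusted p = 0.0868, 0.0548 and 0.0644) and called Slc1a2 higher (0.28, edgeR adjusted p = 0.0492). Over all genes the block called 2874 of 15101 higher and 2560 lower. With library totals as the scale, Gfap (−0.78) and Cst3 (−0.59) were called lower, beside 5258 of 15706 genes lower and 648 higher. Deposited TPM (a level per transcript length that sums to the same total in each library) gave another picture. On that scale 5 structural RNAs took 56.0 to 60.3% of all TPM in the vehicle-treated and 62.1 to 72.3% in the Igfbp2-treated libraries. On log2(TPM + 1) the median of all genes moved by −0.30 between these groups, 200 genes were called higher and 6154 lower by limma, against 2238 and 1685 by edgeR, and 5 of the markers were called lower. These were Gfap (−0.98), Cst3 (−0.80), Aldoc (−0.73), Aqp4 (−0.41) and Gja1 (−0.32). For Aqp4 and Gja1 the difference was 0.08 and 0.15 with TMM scaling, so the sign turned with the scaling. With TPM rescaled without the structural RNAs 1 marker, Cst3 (−0.48), was called, beside 711 of 15701 genes higher and 2451 lower.

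**Figure D2:**
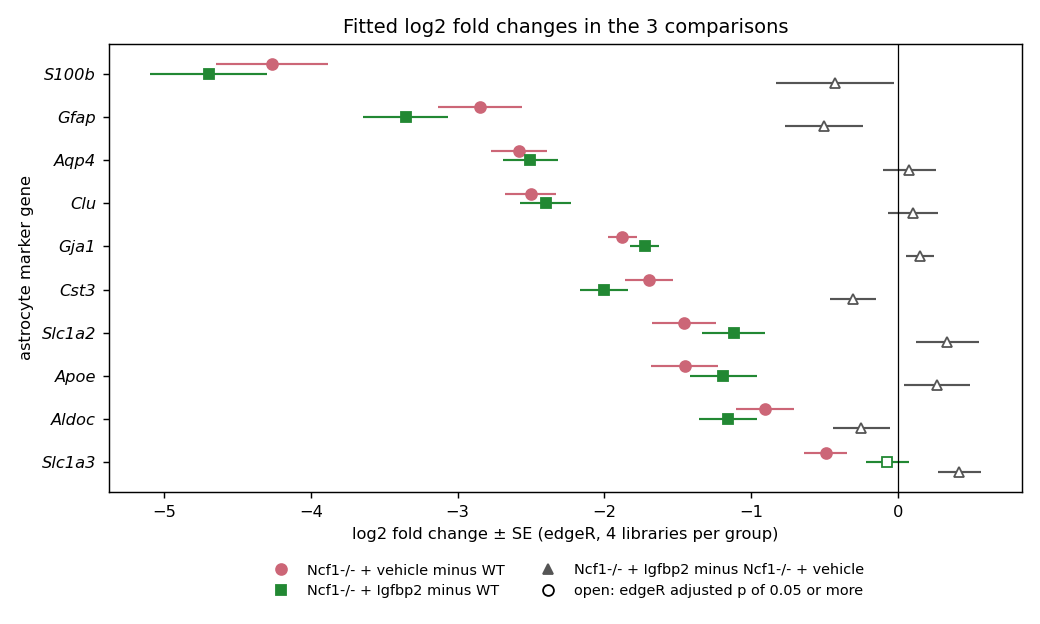
Fitted log2 fold changes with SE for the 10 astrocyte markers in the 3 comparisons, 4 libraries per group, where filled symbols passed an edgeR adjusted p of 0.05. The 2 differences from WT lie well to the left of 0 for 9 markers, and the differences between the treatments lie between −0.50 (Gfap) and 0.42 (Slc1a3) and are all open.

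Igfbp2-treated Ncf1-/- NSCs, compared with the same WT libraries, had 9 of the 10 markers called lower, where 30.8% of all genes were called lower and 31.6% higher. The log2 differences were −4.70 for S100b, −3.35 for Gfap, −2.50 for Aqp4, −2.40 for Clu, −2.0 for Cst3 and −1.73 for Gja1. They were −1.19 for Apoe, −1.16 for Aldoc and −1.12 for Slc1a2, and the 9 CPM ranges did not overlap with WT, against 26.6% of all genes in the lower direction. Slc1a3 was the exception, at −0.07 ± 0.15 (SE, edgeR adjusted p = 0.678), with overlapping ranges. Without WT replicate 12 the same 9 were called, beside 5386 of 15992 genes lower. Their log2 differences were then −4.83 for S100b, −3.32 for Gfap, −2.55 for Aqp4, −2.30 for Clu and −2.05 for Cst3. They were −1.78 for Gja1, −1.17 for Aldoc, −1.13 for Apoe and −0.92 for Slc1a2. Slc1a3 stood at 0.01, without a call. On log2(TPM + 1), limma called Slc1a3 lower too (−0.48, adjusted p = 0.0338), beside a median of −0.25 over all genes on that scale. It was also called lower on TPM rescaled without the structural RNAs (−0.33, limma adjusted p = 0.0481), beside a median of −0.23. This comparison shares its libraries with the other 2 and is no separate evidence.

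Levels of different genes were compared per transcript length, in TPM. In WT NSCs the order was Apoe (3627 ± 1270.4 TPM, SD), Gfap (1647 ± 729.6 TPM), Cst3 (599 ± 85.0 TPM), Aldoc (295 ± 129 TPM), Slc1a3, Gja1, Clu, Aqp4, Slc1a2 (69.4 ± 29.2 TPM) and S100b (47.2 ± 21.1 TPM). Neighbours in this order overlapped over the 4 libraries, except that Gfap was apart from Cst3 and Cst3 from Aldoc. In vehicle-treated Ncf1-/- NSCs Apoe was first at 1320.1 ± 143 TPM, and Gfap (226 ± 36.4 TPM), Cst3 (189.9 ± 19.2 TPM), Slc1a3 (157 ± 13.6 TPM) and Aldoc (156 ± 4.70 TPM) were close to each other. Those 4 neighbours overlapped, and Apoe lay apart from them. In Igfbp2-treated NSCs Slc1a3 came next after Apoe, at 148 ± 10.9 TPM, and did not overlap with Gfap, which followed at 114 ± 16.8 TPM. S100b was last in every group, at 2.63 ± 0.192 TPM in vehicle-treated and 1.41 ± 0.244 TPM in Igfbp2-treated NSCs. By mean TPM, S100b exceeded 92.2% of the genes tested in WT and 34.7% in vehicle-treated Ncf1-/- NSCs, while Apoe exceeded 99.9% and 99.8%.

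**Figure D3:**
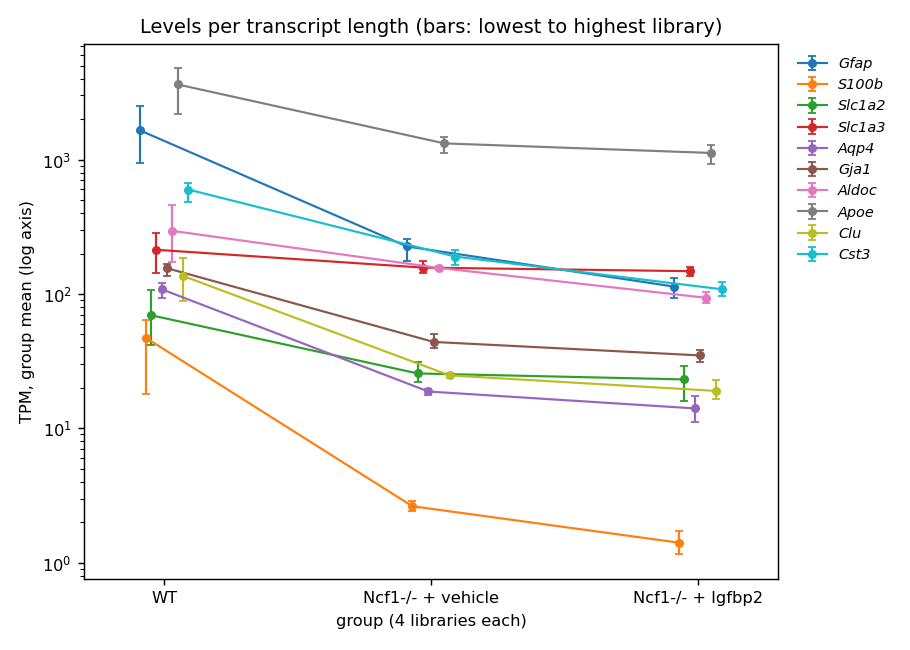
Mean TPM (log axis) of each of the 10 astrocyte markers in the 3 groups, with bars from the lowest to the highest of the 4 libraries. Apoe stays at the top in every group, S100b drops from 47.2 to 2.63 TPM between WT and vehicle-treated Ncf1-/-, and Gfap drops from well above Cst3 in WT to near Cst3, Slc1a3 and Aldoc.

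The coefficient of variation of CPM was higher in WT than in vehicle-treated Ncf1-/- NSCs for 9 of the 10 markers, and than in Igfbp2-treated NSCs for 8. Cst3 was the exception in both, and Aqp4 in the latter. The highest WT library was 4.54 times the lowest for S100b, 2.15 times for Slc1a2, 2.07 times for Gfap and 2.06 times for Aldoc, and 1.14 times for Cst3. Across all genes the biological coefficient of variation, edgeR's measure of spread, was 0.250 in WT, 0.116 in vehicle-treated and 0.121 in Igfbp2-treated NSCs. The WT libraries did not rank alike for all markers: replicate 12 was the highest for 5 and replicate 9 the lowest for 7, whereas replicate 11 had the highest Gfap and Aldoc and the lowest S100b, Aqp4 and Gja1. S100b was lowest in replicate 11, next in replicate 12 and highest in replicates 9 and 10, as were the summed oligodendrocyte markers, which were 12266, 12318, 2482 and 7363 CPM in replicates 9 to 12, beside 132, 118, 29.1 and 79.6 CPM of S100b. The part of the oligodendrocyte lineage in the S100b values was not tested. In the other groups, vehicle-treated replicate 4 had the lowest CPM of its group for 7 markers and Igfbp2-treated replicate 7 for 9. By TPM the counts were 5 and 4, and Igfbp2-treated replicate 6, with the lowest share of structural RNA in its group (62.1%), was the highest for all 10.

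Genes related to each marker by family or function gave mixed results between vehicle-treated Ncf1-/- and WT NSCs. Beside the counts of this and the other lists below, 28.9% of all genes were called higher and 28.2% lower in this comparison. After Igfbp2 treatment the shares of all genes were 14.2% higher and 10.7% lower. Of the other intermediate filament genes, 2 fell and 2 rose of 7 tested. Nes, the NSC filament nestin, rose, at 211 ± 158 CPM in WT and 799 ± 114 CPM in vehicle-treated Ncf1-/- NSCs (log2 fold change 1.92, edgeR adjusted p = 6.28e-04), and Ina, the neuronal filament internexin, fell, at 13.9 ± 3.31 CPM in WT and 1.87 ± 0.282 CPM in vehicle-treated Ncf1-/- NSCs (log2 fold change −2.89, edgeR adjusted p = 9.85e-08). Vim, named here after its values were seen, was at 1847 ± 1862 CPM in WT and 4039.9 ± 196 CPM in vehicle-treated Ncf1-/- NSCs (log2 fold change 1.13, edgeR adjusted p = 0.0636), with WT libraries from 626 to 4569 CPM.
Of the genes for other glutamate and glutamine handling, 4 fell and 3 rose of 10 tested. The glutamate transporter Slc1a1 (EAAC1) fell from 209 ± 82.3 CPM in WT to 8.51 ± 1.05 CPM in vehicle-treated Ncf1-/- NSCs (log2 fold change −4.62, edgeR adjusted p = 1.10e-07). Glul, the glutamine synthetase of astrocytes, fell too, at 1030.3 ± 88.4 CPM in WT and 598 ± 20.8 CPM in vehicle-treated Ncf1-/- NSCs (log2 fold change −0.79, edgeR adjusted p = 1.12e-05), and the neutral amino acid transporter Slc1a5 rose, at 1.88 ± 0.0980 CPM in WT and 9.47 ± 1.06 CPM in vehicle-treated Ncf1-/- NSCs (log2 fold change 2.32, edgeR adjusted p = 5.89e-08).
For the other connexins and pannexin 1, 4 fell and 2 rose of 6 tested, with Gjc3, a connexin of oligodendrocytes, at 129.7 ± 65.7 CPM in WT and 29.5 ± 2.97 CPM in vehicle-treated Ncf1-/- NSCs (log2 fold change −2.14, edgeR adjusted p = 3.39e-05). Among other aquaporins and the proteins that hold Aqp4 at the endfoot, 5 fell and 1 rose of 9 tested. The anchoring genes Agrn (agrin) and Dtna (dystrobrevin) fell, with log2 fold changes of −1.42 and −1.22. The 1 that rose was Dmd (dystrophin), named here after its values were seen. It was at 70.5 ± 25.1 CPM in WT and 126 ± 6.66 CPM in vehicle-treated Ncf1-/- NSCs (log2 fold change 0.83, edgeR adjusted p = 0.00127).

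More of the lipoprotein genes related to Apoe and Clu fell than rose. Of these, 6 fell and 2 rose of 13 tested, and Lrp1, a receptor of Apoe, was at 919 ± 208 CPM in WT and 209 ± 39.4 CPM in vehicle-treated Ncf1-/- NSCs (log2 fold change −2.13, edgeR adjusted p = 3.00e-06). The lipid exporters Abca7 and Abca1 fell as well, with log2 fold changes of −1.59 and −1.58. After Igfbp2 treatment 0 fell and 6 rose of 13 tested, among them Lrp1, from 209 to 470.0 CPM (log2 fold change 1.17, edgeR adjusted p = 0.00265), and Abca1, from 202 to 335 CPM (log2 fold change 0.73, edgeR adjusted p = 0.0329), while Apoe and Clu did not pass the test.
Of the other cystatins and cathepsins, 2 fell and 4 rose of 12 tested, with the cathepsin Ctsh at 1.91 ± 1.31 CPM in WT and 11.5 ± 1.12 CPM in vehicle-treated Ncf1-/- NSCs (log2 fold change 2.53, edgeR adjusted p = 4.49e-05). Of the other S100 genes, 6 fell and 2 rose of 9 tested, with S100a6 at 24.8 ± 9.05 CPM in WT and 3.58 ± 0.708 CPM in vehicle-treated Ncf1-/- NSCs (log2 fold change −2.79, edgeR adjusted p = 2.89e-06) and S100a10 at 6.16 ± 1.26 CPM in WT and 28.1 ± 0.448 CPM in vehicle-treated Ncf1-/- NSCs (log2 fold change 2.18, edgeR adjusted p = 6.40e-08). Aldoa, the general aldolase and the only other one tested, was at 635 ± 357 CPM in WT and 939 ± 65.2 CPM in vehicle-treated Ncf1-/- NSCs (log2 fold change 0.57, edgeR adjusted p = 0.0877), and without WT replicate 12 it was called higher.

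Further astrocyte genes fell in part, and some rose. Of 19 astrocyte membrane proteins tested, 11 fell and 2 rose, with a median log2 fold change of −0.83. The urea transporter Slc14a1 and the receptor Gpr37l1 fell, with log2 fold changes of −2.55 and −1.99. Of the astrocyte enzymes, 6 fell and 4 rose of 12 tested, with a median of −0.02: Ndrg2 was at 478 ± 121 CPM in WT and 154 ± 31.7 CPM in vehicle-treated Ncf1-/- NSCs (log2 fold change −1.64, edgeR adjusted p = 2.91e-05) and the acyl-CoA synthetase Acsbg1 at 145 ± 62.7 CPM in WT and 342 ± 7.57 CPM in vehicle-treated Ncf1-/- NSCs (log2 fold change 1.24, edgeR adjusted p = 3.47e-04). Aldh1l1, a widely used astrocyte marker named here after its values were seen, was at 688 ± 608 CPM in WT and 1082 ± 52.5 CPM in vehicle-treated Ncf1-/- NSCs (log2 fold change 0.65, edgeR adjusted p = 0.232). After Igfbp2 treatment 6 membrane proteins rose and 1 fell, and Kcnj10, a potassium channel also named after its values were seen, rose from 482 to 1054 CPM (log2 fold change 1.13, edgeR adjusted p = 5.25e-04).
Among genes induced in reactive astrocytes more rose than fell, where 28.9% of all genes were called higher and 28.2% lower. These lists leave out Gfap, which is among the 10 markers and fell 7.20-fold. Of 11 pan-reactive genes tested 5 rose and 2 fell, with Cp (ceruloplasmin) at 9.99 ± 12.3 CPM in WT and 79.2 ± 2.28 CPM in vehicle-treated Ncf1-/- NSCs (log2 fold change 2.93, edgeR adjusted p = 0.00103). For the set often called A1, 1 fell and 4 rose of 10 tested, and for the A2 set 1 fell and 6 rose of 11 tested, with Tm4sf1 at 0.414 ± 0.277 CPM in WT and 5.90 ± 0.986 CPM in vehicle-treated Ncf1-/- NSCs (log2 fold change 3.69, edgeR adjusted p = 1.25e-06) and Ptgs2, the cyclooxygenase COX-2, at 6.88 ± 1.24 CPM in WT and 0.533 ± 0.101 CPM in vehicle-treated Ncf1-/- NSCs (log2 fold change −3.69, edgeR adjusted p = 7.27e-08). Without WT replicate 12, the counts of genes called were the same for 15 of the 25 lists described here and below and differed by at most 1 in a direction for the other 10.

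Markers of other cell types moved with the genotype, and their part in the results for the astrocyte markers was not tested. All 12 oligodendrocyte markers fell, from a summed 2482 to 12318 CPM in WT to 287 to 353 in vehicle-treated and 329 to 405 in Igfbp2-treated Ncf1-/- NSCs. Mbp, a myelin protein, was at 2448 ± 1677 CPM in WT and 2.78 ± 0.438 CPM in vehicle-treated Ncf1-/- NSCs (log2 fold change −9.78, edgeR adjusted p = 4.90e-07). Of 6 oligodendrocyte precursor markers 4 fell and 2 rose, with sums of 2636 to 4072 CPM in WT, 1985 to 2149 in vehicle-treated and 2024 to 2101 in Igfbp2-treated NSCs. Of 10 neural stem cell markers 4 rose and 5 fell, and their sum was 1939 to 3705 CPM in WT, 4258 to 4625 in vehicle-treated and 4489 to 4782 in Igfbp2-treated NSCs. Sox2, a transcription factor of NSCs, fell, at 386 ± 15.9 CPM in WT and 197 ± 3.92 CPM in vehicle-treated Ncf1-/- NSCs (log2 fold change −0.97, edgeR adjusted p = 3.39e-07), as did the RNA-binding Msi1, at 150.1 ± 30.3 CPM in WT and 78.1 ± 2.38 CPM in vehicle-treated Ncf1-/- NSCs (log2 fold change −0.94, edgeR adjusted p = 1.64e-05), both named after their values were seen. The sum was carried mainly by Fabp7, a lipid-binding protein of radial glia also named after its values were seen, at 1369 ± 557 CPM in WT and 2672 ± 55.0 CPM in vehicle-treated Ncf1-/- NSCs (log2 fold change 0.96, edgeR adjusted p = 0.00177). Among those that rose, the notch target Hes1 was at 5.28 ± 3.80 CPM in WT and 29.2 ± 2.94 CPM in vehicle-treated Ncf1-/- NSCs (log2 fold change 2.41, edgeR adjusted p = 6.62e-05) and the growth factor receptor Egfr at 184 ± 92.3 CPM in WT and 482 ± 90.0 CPM in vehicle-treated Ncf1-/- NSCs (log2 fold change 1.39, edgeR adjusted p = 4.59e-04).
Of 10 neuronal markers tested 6 fell and none rose, with sums of 631 to 809 CPM in WT and 494 to 559 in vehicle-treated and 443 to 474 in Igfbp2-treated NSCs, and Dcx (doublecortin) was at 66.6 ± 19.8 CPM in WT and 7.75 ± 0.539 CPM in vehicle-treated Ncf1-/- NSCs (log2 fold change −3.10, edgeR adjusted p = 8.34e-08). Microglial markers were at or near 0: 9 of 12 markers had at most 3 counts in each library of each group, including Aif1, Cx3cr1, Tmem119, C1qa, C1qb and C1qc, and the sum was at most 2.13 CPM, and of the 2 tested 1 was called higher. Sums of endothelial, mural and fibroblast, ependymal and choroid plexus markers were at most 16.8, 27.9, 80.8 and 14.4 CPM, against 10838 to 17700.3 CPM for the 10 astrocyte markers in WT and 3537 to 4832 in vehicle-treated Ncf1-/- NSCs. Of these 4 lists, the endothelial had 0 genes called higher and 1 lower of 3 tested, the mural and fibroblast 4 and 1 of 6, the ependymal 1 and 1 of 4, and the choroid plexus 0 and 0 of 1.

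**Figure D4:**
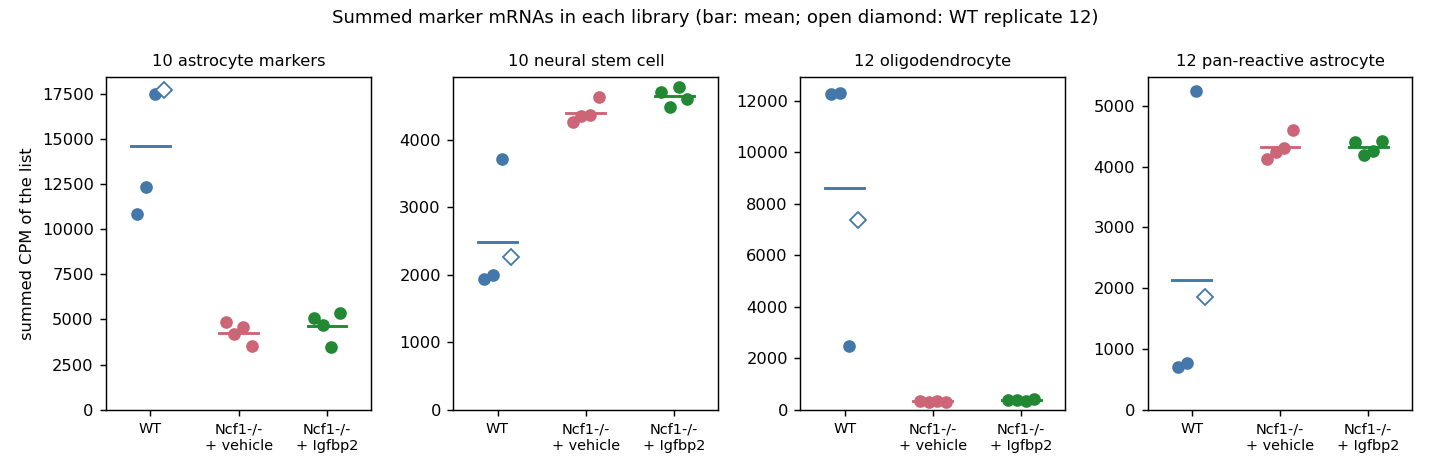
Summed CPM of 4 marker lists in each library, with a bar at the group mean and WT replicate 12 as an open diamond. The sum of the astrocyte markers is higher in all 4 WT libraries than in any Ncf1-/- library, as is that of the oligodendrocyte markers, while the neural stem cell sum is lower in WT, and the pan-reactive sum is low in 3 WT libraries and highest of all in WT replicate 11 (5244 CPM), a sum that is mostly Vim (4569 CPM in its highest WT library).

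For each marker the 2 genes of most similar pattern were sought among 11172 genes, by the mean absolute difference of centred log2 CPM over the 12 libraries (given in parentheses). Most of the libraries' differences are those between the groups, so that a small value mainly says that a gene moved by as much. For S100b these were Plxnb3 (0.14) and Sh3gl3 (0.17), and for Gfap Slc14a1 (0.19) and Lrrc75b (0.22). The nearest to Aqp4 were Sh3bp4 (0.13) and Kcne1l (0.15), to Gja1 Kcna6 (0.08) and Phyhipl (0.10), and to Clu Eepd1 (0.11) and Pygb (0.14). For the transporters they were Ntrk2 (0.11) and Rgma (0.13) for Slc1a2 and Anxa7 (0.07) and Zbtb46 (0.07) for Slc1a3. For Apoe they were Ndrg2 (0.14) and Ctsf (0.16), for Cst3 Ppp2r2b (0.11) and Ccdc13 (0.12) and for Aldoc Adhfe1 (0.09) and Klhl25 (0.11). Slc14a1 and Ndrg2 are also on the astrocyte lists above and Ctsf is on the cathepsin list.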

How the data were processed

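Per the labels, the authors used Bowtie2 and RSEM with GRCm38, and they deposited for each library the expected count per gene, without normalization, together with TPM made by RSEM. The deposited FPKM values were not used. A merged table by the authors holds a score equal to TPM times the number of transcripts, which served only to match symbols to gene identifiers. After rounding of the expected counts, filterByExpr of edgeR 4.0.16 (R 4.3.3) retained 15706 of 45792 genes, which held 99.9% of the counts. TMM factors set the scale for CPM too, and the quasi-likelihood fit took all 12 libraries, with 1 mean for each of the 3 groups and no covariate. P-values were two-sided, with Benjamini-Hochberg adjustment across the genes retained. The SE of an edgeR log2 fold change was derived from its test, as the size of the change divided by the square root of the F statistic. P-values measure the spread between these cultures, which the study states came from separate pups. The Y-linked and Xist RNA of the vehicle-treated libraries goes against that description. Whether these libraries are independent animals is therefore uncertain, and this limit holds for the edgeR and the permutation p-values. The tests were tried on simulated data. Alternatives were DESeq2 1.42.0, other scalings and filters, limma 3.58.1 on log2(TPM + 1) or log2(TPM + 0.1), the study's own ANOVA with Tukey tests on TPM, fits to the 2 groups of a comparison alone, a block for the stated culture pair, and each library left out in turn; those for genes of the other lists were added after seeing the data.

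The 10 markers and 25 other gene lists were chosen with earlier results of these data known. All markers are named; of each other list at most the 3 called genes with the largest log2 fold change between vehicle-treated Ncf1-/- and WT NSCs were eligible, besides defining markers near 0 counts and those said to be named after their values were seen. All 10 markers passed the filter on low counts. Replicates of a group all differed by more than sampling noise (chi-square per degree of freedom of at least 4.63). Counts of 3 or fewer were taken as the floor, and no marker was near it. Promoter sequences are from RefSeq. A gene of 1 list is not reported here.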

Additional observations from a re-analysis of the deposited data

Results flagged for a closer look

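Each marker was looked at in each group of 4 libraries for a highest or lowest library that stood far from the other 3, by Dixon's ratio of the gap to the range at its 95% critical value. Of 30 such groups 2 held one, and chance alone flags about 1 in 20. Aqp4 was low in WT replicate 11, at 559 CPM against 793 CPM or more in the other WT libraries (ratio 0.894), and this library was also the lowest of WT for S100b and Gja1. Slc1a2 was high in vehicle-treated Ncf1-/- replicate 4, at 321 CPM against 254 CPM or less in the other 3 (ratio 0.883), a library that was the lowest of its group for 7 of the 10 markers. The causes were not tested.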

How the results depend on the processing

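Between vehicle-treated Ncf1-/- and WT NSCs, 7 to 10 of the 10 markers were called under the alternatives and 10 with each library left out, and 94 of 100 log2 fold changes kept their call under the alternatives and 120 of 120 with a library left out. The exceptions were Slc1a3 with library totals (−0.31), limma on log2(TPM + 1) (−0.39) and log2(TPM + 0.1) (−0.39), and the study's own test for Slc1a3 (−0.44), Slc1a2 (−1.40) and Aldoc (−0.91). Among all genes, the alternatives called 2058 of 27880 (the study's own test) to 4956 of 15701 (limma on rescaled TPM) lower in this comparison. With a library left out these were 4110 to 4727. Between Igfbp2-treated Ncf1-/- and WT NSCs, 7 to 10 were called under the alternatives and 9 with each library left out. The study's own test left Slc1a2 and Aldoc without a call, with 4627 of 27880 genes lower. Limma also called Slc1a3 lower, on log2(TPM + 1) with 6890 of 15706 genes lower and on log2(TPM + 0.1) with 7009. On TPM rescaled without 5 structural RNAs limma called it as well (−0.33), with 6828 of 15701 genes lower. With a library left out 4581 to 5386 genes were called lower. Between the treatments 0 were called in the reported fit, and 1, higher, by DESeq2 (2442 higher and 1845 lower among all genes). Library totals called 2, both lower (648 and 5258 among all genes), and the fit with only the 2 groups called 4, with 1 higher and 3 lower (2950 and 2759). Limma on log2(TPM + 1) called 5 lower (200 and 6154), on log2(TPM + 0.1) 6 lower (165 and 6354), and with TPM rescaled without 5 structural RNAs 1 lower (711 and 2451). The replicate block called 2, both higher (2874 and 2560). With a library left out 0 to 1 were called, beside 1202 to 2863 genes higher and 1021 to 2088 lower among all genes. The sign turned, past the threshold, for Aqp4 (−0.41 and −0.44) and Gja1 (−0.32 and −0.33) by limma on log2(TPM + 1) and log2(TPM + 0.1); on that scale the median of all genes moved by −0.30 and −0.42. By the exact permutation test, only Slc1a3 reached the smallest possible p between the treatments, which follows from its ranges that do not overlap. For the pairing, vehicle and treated libraries that the study pairs had correlations of deviations from the group means of −0.0673 to 0.0328, against −0.248 to 0.257 for other pairs. These correlations give no hint of the pairs. Each stated pair also joins a vehicle-treated library with 105 to 116 CPM of Y-linked RNA to a treated one with 7.79 to 9.18 CPM. That goes against the description of cultures from the same animal, so the block rests on pairs that the data do not bear out. Set against the unblocked fit of the same 2 groups, the block lost Gfap, Aldoc and S100b, gained Slc1a2 and kept Slc1a3. The other 5 markers were without a call in both fits. No paired analysis was possible for the comparisons with WT because their libraries come from other animals. For the other lists, 5 of 300 counts between vehicle-treated Ncf1-/- and WT moved by more than 1.5 times with a library left out and 31 of 250 under the other alternatives; between the treatments these were 107 of 300 and 138 of 275. The cause of these shifts was not tested beyond the scaling itself.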

Other observations

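The gp130 and STAT3 pathway, through which cytokines of the LIF family drive Gfap expression in precursors, was described beside the markers. Of 16 genes tested 5 were lower and 1 higher without Ncf1, with a median log2 fold change of 0.08. Over all genes 28.2% were called lower and 28.9% higher. Il6st, the gp130 receptor chain itself, was at 380.4 ± 46.6 CPM in WT and 131 ± 12.9 CPM in vehicle-treated Ncf1-/- NSCs (log2 fold change −1.54, edgeR adjusted p = 1.56e-07), and the ligand gene Lif at 0.929 ± 0.622 CPM in WT and 2.06 ± 0.430 CPM in vehicle-treated Ncf1-/- NSCs (log2 fold change 1.16, edgeR adjusted p = 0.0147). After Igfbp2 treatment Lif rose from 2.06 to 7.20 CPM (log2 fold change 1.80, edgeR adjusted p = 0.00275), and Il6 had at most 3 counts in every library. Stat3, named here after its values were seen, was at 274 ± 108 CPM in WT and 354 ± 15.6 CPM in vehicle-treated Ncf1-/- NSCs (log2 fold change 0.37, edgeR adjusted p = 0.132).

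Of 9 astrocyte transcription factor genes 7 fell and none rose in vehicle-treated Ncf1-/- NSCs, among them Hopx, at 23.7 ± 4.59 CPM in WT and 7.37 ± 0.889 CPM in vehicle-treated Ncf1-/- NSCs (log2 fold change −1.69, edgeR adjusted p = 1.42e-06), Zbtb20, at 311 ± 39.5 CPM in WT and 110.2 ± 34.5 CPM in vehicle-treated Ncf1-/- NSCs (log2 fold change −1.50, edgeR adjusted p = 1.41e-04), and Id3, at 191 ± 7.72 CPM in WT and 93.6 ± 12.4 CPM in vehicle-treated Ncf1-/- NSCs (log2 fold change −1.03, edgeR adjusted p = 4.31e-06). With Igfbp2, 2 of the 9 were called higher, among them Hopx, from 7.37 to 12 CPM (log2 fold change 0.71, edgeR adjusted p = 0.00685). Of 12 genes for other astrocyte secreted proteins 7 fell and 2 rose with the loss of Ncf1. For this list and the transcription factors, the shares over all genes were 28.2% lower and 28.9% higher. Chrdl1, a BMP antagonist made by astrocytes, was at 7.26 ± 4.27 CPM in WT and 30.1 ± 4.15 CPM in vehicle-treated Ncf1-/- NSCs (log2 fold change 2.02, edgeR adjusted p = 7.09e-05), and Itih3 at 4.79 ± 1.19 CPM in WT and 1.85 ± 0.190 CPM in vehicle-treated Ncf1-/- NSCs (log2 fold change −1.38, edgeR adjusted p = 1.58e-04).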
